A study of Arabidopsis thaliana with 21 samples.

Results

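The genes described here are 9 Arabidopsis genes of abscisic acid (ABA) metabolism, ABA signalling and seed dormancy: SOM (AT1G03790), DAG1 (AT3G61850), ABI3 (AT3G24650), ABI5 (AT2G36270), NCED6 (AT3G24220), NCED9 (AT1G78390), CYP707A1 (AT4G19230), CYP707A2 (AT2G29090) and CYP707A3 (AT5G45340). They were taken by locus from the deposited counts, where they are 9 of 33655 features. No limit on their values was used to pick them, but the set was chosen with earlier results of these data known. The measurements are RNA-seq read counts of whole Arabidopsis thaliana seedlings, 3 days old, from 21 libraries in 7 groups of 3. To start germination, all stratified seeds were given 3 h of white light and then 21 h of darkness. They next received far-red light (10 µmol per square metre and second), which inactivates phytochrome, and were kept in darkness, and the red groups were exposed to red light for 1 h at the end (8 µmol per square metre and second by the labels; the methods give a lower fluence rate). The genotypes with red libraries only were Col-0, the wild type; cop1-4, a weak allele of the ubiquitin ligase subunit COP1; and spaQ, which carries mutations in SPA1, SPA2, SPA3 and SPA4, the partners of COP1. Both dark and red libraries were made from phyB-GFP FL and from the phyB-GFP ΔC line. These lines express full-length phytochrome B, or phytochrome B with a deletion at its C-terminal end, fused to GFP in the phyA-211phyB-9 background, which lacks the endogenous phyA and phyB photoreceptors. The promoter of the transgenes was not named in the sources used here, and since darkness was not analysed here in spaQ, cop1-4 and Col-0, the response to red light could not be computed for them.

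ABA is made from carotenoids, and its level is set by the balance between synthesis and breakdown. The NCED enzymes cleave the carotenoid precursor, the step that limits synthesis, and the CYP707A enzymes hydroxylate ABA at its 8′ position and so inactivate it. ABA is perceived by PYR/PYL receptors, which inhibit the PP2C phosphatases and thereby free SnRK2 kinases to activate transcription factors of the ABI5 and ABF type. In seeds the same hormone, together with the B3 factor ABI3, keeps the embryo dormant, and in imbibed seeds phytochrome acts on this balance through PIF1, its target SOM and the zinc finger factor DAG1. The present samples are described as seedlings, a stage after germination. The share of ungerminated seeds in each library was not given in the sources used here.

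The libraries held 15678019 to 29523833 counts. Levels are given as CPM, counts relative to the library total scaled by TMM factors over all 21 libraries, and as RPKM, which also divides by exon length, wherever different genes are set side by side. In every library 3 counts, taken as the detection floor, equalled 0.0941 to 0.205 CPM, a limit that covers counting error only. In the groups whose genes were mutated or reintroduced, SPA1 differed by −2.96 and SPA3 by −2.61 on the log2 scale between spaQ and Col-0, while SPA2 and SPA4 differed by 0.10 and 0.33, COP1 by −0.85 between cop1-4 and Col-0, and PHYB by 2.96 between phyB-GFP FL and Col-0 in red light. The third red library of phyB-GFP FL stood apart from its group: its counts differed from those of replicates 1 and 2 with a chi-square of 19.2 and 30.7 per gene, against 4.5 between those replicates, so the members' main differences that use it are also given without it. The labels do not say that replicates came from separate cultures, so p-values measure only the spread between these libraries. In whole seedlings, fewer cells of a type and less RNA per cell cannot be told apart.

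The largest difference among the 9 genes was that of CYP707A2, and its relatives CYP707A1 and CYP707A3 went the other way. The 250 bases before the annotated start of each gene are therefore shown first (RefSeq annotation of TAIR10.1, 5′ to 3′). The start is the outer boundary of the gene. Starts of single transcripts, of which CYP707A2 has 4 annotated, were not searched separately. Capitals mark the G-box CACGTG and the RY element CATGCA, which reads TGCATG on the other strand.
CYP707A1 promoter, chr4:10521009-10521258, plus strand: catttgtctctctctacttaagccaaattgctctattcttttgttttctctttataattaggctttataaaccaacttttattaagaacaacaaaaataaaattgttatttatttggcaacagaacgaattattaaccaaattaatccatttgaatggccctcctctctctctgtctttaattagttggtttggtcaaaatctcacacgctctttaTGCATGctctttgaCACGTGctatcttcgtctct
CYP707A3 promoter, chr5:18371022-18371271, minus strand: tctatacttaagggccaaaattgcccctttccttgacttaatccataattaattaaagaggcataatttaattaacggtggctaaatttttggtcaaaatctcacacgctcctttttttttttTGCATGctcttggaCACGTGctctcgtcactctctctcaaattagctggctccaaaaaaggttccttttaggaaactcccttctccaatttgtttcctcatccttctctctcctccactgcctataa
CYP707A2 promoter, chr2:12499724-12499973, minus strand: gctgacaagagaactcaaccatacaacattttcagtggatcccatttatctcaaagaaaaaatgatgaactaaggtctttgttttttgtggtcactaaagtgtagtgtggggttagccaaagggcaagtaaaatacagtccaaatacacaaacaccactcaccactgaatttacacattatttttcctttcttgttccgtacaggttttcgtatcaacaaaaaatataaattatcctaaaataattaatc
CYP707A1 and CYP707A3 each held 1 RY element and 1 G-box with 8 bases between them, at −34 and −20 in CYP707A1 and at −127 and −113 in CYP707A3, counted to the first base from the start. They also shared an unbroken run of 23 bases, tttggtcaaaatctcacacgctc, upstream of these elements, while the longest run that either shared with CYP707A2 was 9 bases. Neither element, and none of the ABRE core ACGTG, which lies inside the G-box, or of the PBE CATGTG, had a match in the CYP707A2 window of 250 bases before to 50 after the start, searched on both strands. Over windows of this length of 27443 genes, the G-box was found in 7.68%, the RY element in 9.72%, the ABRE core in 26.7% and the PBE in 12.9%. A G-box and an RY element within 10 bases of each other were found in 55 of them, 0.2%. This pattern was taken from CYP707A1 and CYP707A3 themselves, so the share does not measure how unusual their likeness is. A match is a description of letters and not evidence of binding.

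SOM and ABI5 are shown because their windows held the other repeated matches. In SOM the capitals mark overlapping PBEs at −53 and −51, on opposite strands, and an RY element at −3, which runs across the start, is not marked. In ABI5 they mark 3 G-boxes at −146, −100 and −89, and an ABRE core at −233, outside the G-boxes, is not marked.
SOM promoter, chr1:954040-954289, plus strand: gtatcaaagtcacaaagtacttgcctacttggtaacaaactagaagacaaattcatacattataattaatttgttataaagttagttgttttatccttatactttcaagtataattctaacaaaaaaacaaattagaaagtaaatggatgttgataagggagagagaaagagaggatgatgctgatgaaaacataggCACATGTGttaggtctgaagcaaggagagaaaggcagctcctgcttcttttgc
ABI5 promoter, chr2:15207637-15207886, minus strand: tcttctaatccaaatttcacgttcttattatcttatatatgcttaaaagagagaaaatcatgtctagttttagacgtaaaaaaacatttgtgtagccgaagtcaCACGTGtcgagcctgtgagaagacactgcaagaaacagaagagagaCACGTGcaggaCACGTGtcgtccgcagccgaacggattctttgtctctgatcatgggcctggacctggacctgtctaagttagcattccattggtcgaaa
Of the remaining genes, NCED9 held a G-box at −26 and ABI3 a PBE at −108, NCED6 an RY element at 20, inside the transcribed part, and DAG1 no match to any of the 4 motifs. None of the 9 genes overlapped another annotated gene on either strand.

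Col-0, spaQ and cop1-4 were compared in red light to ask how these genes stand when the COP1/SPA ligase is impaired. The paper describes light-type development already in darkness for mutants of COP1 and the SPA genes. Without dark libraries here, such earlier differences and those arising in red light cannot be told apart. Of the 9 genes, 8 were tested, and all 8 passed the adjusted p of 0.05 in both mutants, which 79.4% of all genes tested did in spaQ and 72.9% in cop1-4. With the added limit of a log2 fold change over 1 that a call required here, 1 gene was called higher and 5 lower in spaQ than in Col-0, against 15% and 17.5% of all genes tested, and 1 higher and 4 lower in cop1-4, against 10.7% and 13.1%. The gene called higher was CYP707A2 in both mutants. Over the 8 genes the median log2 fold change was −1.07 for spaQ and −0.998 for cop1-4, where over all genes tested it was 0.01 and 0.00. With library size in place of TMM factors the median of all genes moved to −0.24 in spaQ and −0.20 in cop1-4, and the share of higher genes among all calls from 46.1% to 32.7% and from 44.8% to 32.3%. In every one of the 8 genes the 3 spaQ libraries lay outside the range of the 3 Col-0 libraries, and so did the 3 cop1-4 libraries. The share of all genes separated in this way was not computed, so this describes the members and does not set them apart.

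**Figure D1:**
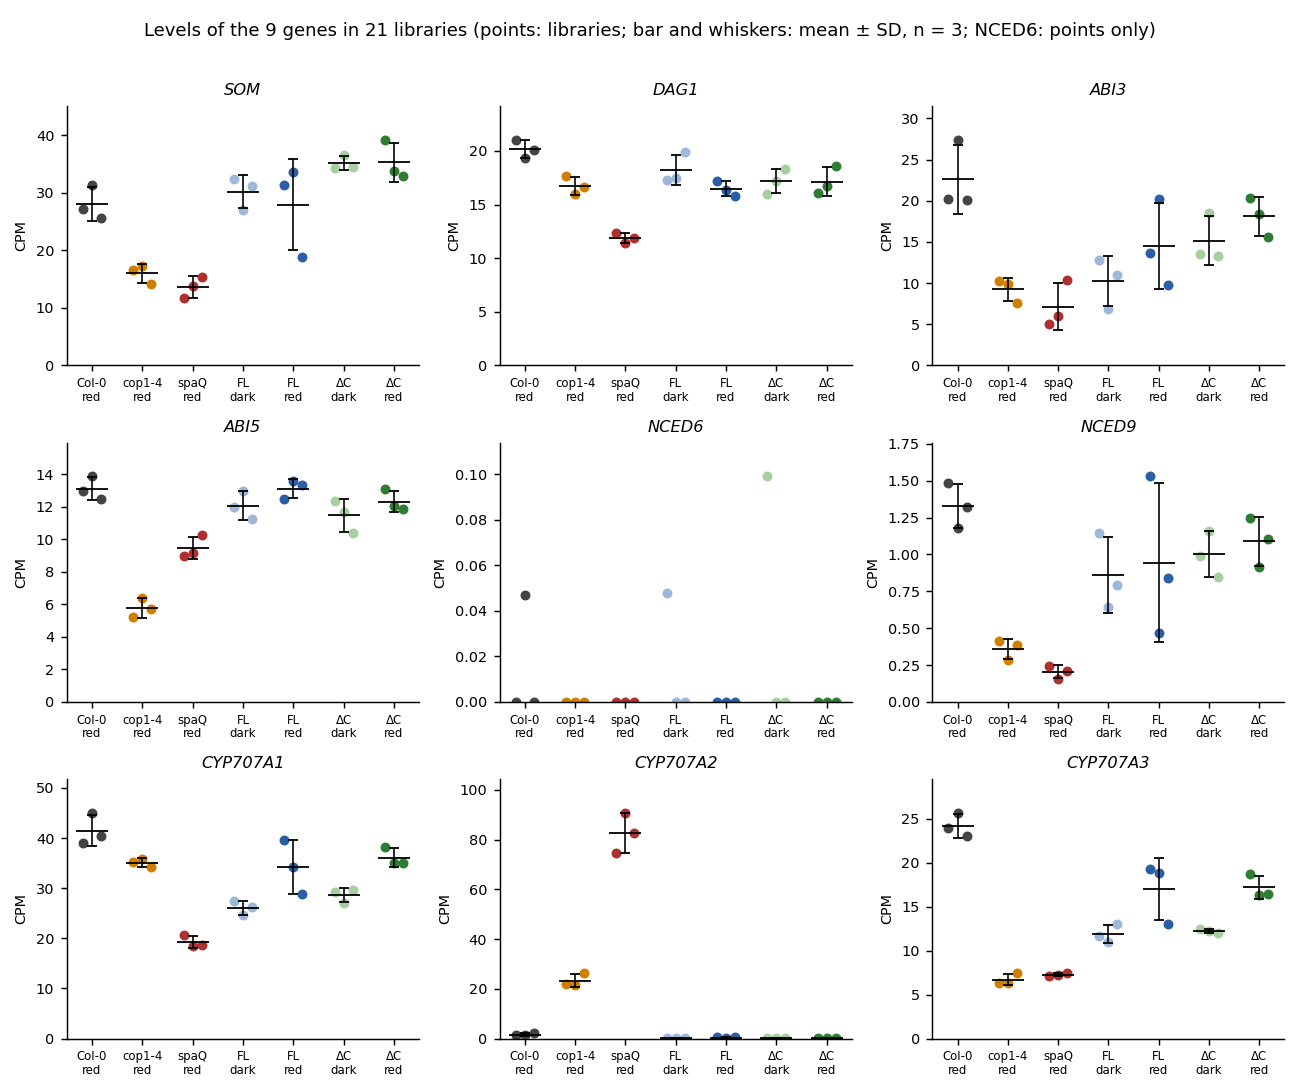
Levels of the 9 genes in CPM (vertical axes, each from 0) in the 21 libraries, by group (FL and ΔC are the phyB-GFP lines). Points are libraries, and the bars with whiskers are means ± SD of 3 libraries, left out for NCED6, which had 5 counts in all. CYP707A2 was high in spaQ and intermediate in cop1-4, where the other 7 measurable genes lay below Col-0.

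SOM encodes a CCCH zinc finger protein that represses light-dependent germination in imbibed seeds. It lies at chr1:954290-956144 in TAIR10.1 as a single exon. In red light its level was 27.2, 31.4 and 25.6 CPM in the Col-0 libraries, 16.6, 17.2 and 14.1 CPM in cop1-4 and 11.6, 13.7 and 15.3 CPM in spaQ. The mutants thus overlapped each other and not the wild type. The log2 fold change was −1.05 in spaQ (standard error 0.0944, adjusted p = 1.69e-10, the quasi-likelihood test of edgeR, Benjamini-Hochberg adjusted over all genes, as for the adjusted p-values below) and −0.81 in cop1-4 (standard error 0.0952, adjusted p = 2.75e-08). The call in spaQ stood close to the fold limit: the difference was −0.96 without Col-0 replicate 2 and −0.94 without spaQ replicate 1, both under it. The difference between the mutants, −0.23, did not pass (95% interval −0.45 to −0.01, adjusted p = 0.0688). In the phyB-GFP lines SOM was at or above the Col-0 level, at 32.4, 27.0 and 31.1 CPM in dark FL and 34.2, 36.5 and 34.5 CPM in dark ΔC. In red FL it was 31.3, 33.5 and 18.9 CPM, where the low value belongs to the library that stood apart, and in red ΔC it was 39.2, 33.7 and 32.9 CPM.

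DAG1 encodes a DOF zinc finger factor that acts in the mother plant and in imbibed seeds to hold germination back. Its level was 21.0, 19.3 and 20.1 CPM in Col-0, 17.7, 15.99 and 16.6 CPM in cop1-4 and 12.4, 11.4 and 11.9 CPM in spaQ. The 3 groups did not overlap, and spaQ was the lowest of all 7 groups, with no overlap with its neighbour in that order. The log2 fold changes of −0.76 in spaQ (standard error 0.079, adjusted p = 2.56e-09) and −0.27 in cop1-4 (standard error 0.0776, adjusted p = 0.00277) passed edgeR's test below the fold limit, and so did the difference between the mutants of −0.48 (adjusted p = 2.99e-05). With library size alone the spaQ difference was −1.01, past the limit. Across the phyB-GFP groups the means of DAG1 spanned only 16.5 to 18.2 CPM, and every group overlapped its neighbour in that order. The red FL libraries, at 15.8 to 17.2 CPM, nevertheless all lay below the dark FL libraries, at 17.3 to 19.9 CPM.

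ABI3, the B3 transcription factor of seed maturation, lies at chr3:8997370-9001185 with 6 exon blocks. Its level was 20.2, 27.4 and 20.1 CPM in Col-0, 10.3, 9.82 and 7.61 CPM in cop1-4 and 5.01, 6.03 and 10.3 CPM in spaQ. Both mutants lay under the lowest wild-type library and overlapped each other. ABI3 fell by 1.67 on the log2 scale in spaQ (standard error 0.161, adjusted p = 6.05e-10, edgeR) and by 1.29 in cop1-4 (standard error 0.16, adjusted p = 7.17e-08). Their difference of −0.37 had an interval of −0.77 to 0.02 and did not pass (adjusted p = 0.102). Replicates of ABI3 scattered widely in the phyB-GFP lines, at 12.8, 6.90 and 11.0 CPM in dark FL, 13.6, 20.2 and 9.74 CPM in red FL, 13.6, 18.5 and 13.3 CPM in dark ΔC and 20.3, 18.4 and 15.6 CPM in red ΔC.

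ABI5 encodes the bZIP factor that executes ABA responses in seeds and arrests growth of young seedlings. It was lower in cop1-4 than in spaQ, the opposite order to that of DAG1. The Col-0 libraries had 13.0, 13.9 and 12.5 CPM, the cop1-4 libraries 5.21, 6.40 and 5.69 CPM and the spaQ libraries 9.0, 9.13 and 10.3 CPM. No library of any of these groups overlapped another group, and cop1-4 was the lowest of all 7 groups. The log2 fold change was −1.18 in cop1-4 (standard error 0.109, adjusted p = 3.4e-10, edgeR) and −0.47 in spaQ (standard error 0.0962, adjusted p = 9.99e-05, below the fold limit). Between the mutants ABI5 was higher in spaQ by 0.72 (standard error 0.115, adjusted p = 1.06e-05), also below the limit. Seed storage markers were likewise lower in cop1-4 than in spaQ, but unlike ABI5 their sum was above Col-0 in spaQ: the summed level of 9 seed maturation genes (cruciferins, seed storage albumins and oleosins) was 230 to 449 CPM in Col-0, 2.68 to 148 CPM in cop1-4 and 1181 to 2148 CPM in spaQ, and of these genes 9 were called lower in cop1-4 and 4 higher and 2 lower in spaQ than in Col-0. In cop1-4 the sum was 148 CPM in replicate 2 against 4.18 and 2.68 CPM in the others. Their part in the level of ABI5 or ABI3 was not tested. In the phyB-GFP groups the means of ABI5 were 11.5 to 13.1 CPM, each overlapping its neighbour, while the seed marker sum ran from 3.90 to 64.1 CPM in red ΔC and from 270 to 778 CPM in red FL.

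The 9-cis-epoxycarotenoid dioxygenases NCED6 and NCED9 are known for ABA synthesis in developing seeds. NCED6 was too low to judge: it had 5 counts in all 21 libraries together, 1 in a Col-0 library, 1 in a dark FL library and 3 in a dark ΔC library, and 0 in the other 18, and it passed the expression filter of no fit. NCED9 was low but measurable in most groups. Its raw counts were 32, 25 and 32 in Col-0, 6, 5 and 6 in cop1-4 and 5, 3 and 4 in spaQ, or 1.48, 1.18 and 1.32 CPM, 0.411, 0.286 and 0.383 CPM and 0.243, 0.157 and 0.211 CPM. The wild type did not overlap either mutant. NCED9 was lower by a log2 fold change of −2.66 in spaQ (95% interval −3.40 to −1.92, adjusted p = 2.57e-07, edgeR) and −1.89 in cop1-4 (−2.58 to −1.19, adjusted p = 2.07e-05). Whether the mutants differed from each other was too low to judge, since neither had a median of 10 counts. In the phyB-GFP groups NCED9 had 9 to 37 counts per library, and the 3 red FL libraries spread from 0.464 to 1.53 CPM.

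CYP707A2 encodes the ABA 8′-hydroxylase that is known for the rapid loss of ABA when seeds are imbibed. It lies on the minus strand at chr2:12494826-12499723. It had the largest difference of the 9 genes in both mutants. The Col-0 libraries had 29, 30 and 51 counts, 1.34, 1.42 and 2.11 CPM. The cop1-4 libraries had 320, 378 and 414 counts, 21.9, 21.6 and 26.5 CPM, and the spaQ libraries 1537, 1729 and 1569 counts, 74.8, 90.7 and 82.7 CPM. The 3 genotypes were separated by wide gaps. CYP707A2 was 50.3-fold higher in spaQ than in Col-0 (log2 fold change 5.65, standard error 0.118, adjusted p = 8.86e-24, edgeR) and 14.1-fold higher in cop1-4 (3.82, standard error 0.142, adjusted p = 2.21e-18). It was 3.57-fold higher in spaQ than in cop1-4 (1.84, standard error 0.0805, adjusted p = 1.09e-15), the single member called in that comparison, where 8.52% of all genes tested were called. In the phyB-GFP groups it was close to the floor, with 3 to 9 counts per library. There it did not pass the expression filter of the 12-library fit, so its response to red light in those lines is too low to judge. Both lines were below Col-0 in red light, phyB-GFP FL by −1.99 (adjusted p = 1.83e-05) and phyB-GFP ΔC by −2.78 (adjusted p = 3.19e-07), in a fit of all 21 libraries in which the line, its phyA phyB background and any separate handling cannot be told apart.

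CYP707A1 and CYP707A3, the family members that are known to act in vegetative tissue and under changing humidity, went the other way. CYP707A1 lies at chr4:10521259-10523961. It had 39.1, 45.0 and 40.4 CPM in Col-0, 35.1, 35.9 and 34.2 CPM in cop1-4 and 20.6, 18.4 and 18.7 CPM in spaQ. The cop1-4 libraries lay just under the wild type and the spaQ libraries far under both. The log2 fold change was −1.10 in spaQ (standard error 0.0668, adjusted p = 5.02e-14, edgeR), −0.25 in cop1-4 (standard error 0.0635, adjusted p = 0.00124, below the fold limit) and −0.86 between spaQ and cop1-4 (standard error 0.0703, adjusted p = 1.59e-10, below the limit). CYP707A3, on the minus strand at chr5:18368532-18371021, had 23.9, 25.7 and 23.0 CPM in Col-0, 6.30, 6.34 and 7.48 CPM in cop1-4 and 7.10, 7.19 and 7.43 CPM in spaQ. Both mutants were far below the wild type and overlapped each other. Its log2 fold change was −1.74 in spaQ (standard error 0.0879, adjusted p = 1.06e-15) and −1.86 in cop1-4 (standard error 0.0928, adjusted p = 1.27e-15), with a difference between the mutants of 0.12 (95% interval −0.11 to 0.35, adjusted p = 0.385). CYP707A1 thus differed between the mutants with an adjusted p under 0.05, and for CYP707A3 no order between the mutants was established.

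Per exon length, the makeup of the CYP707A members changed. CYP707A4, which is not a member and is described below, is left out of these sums. In Col-0 the summed RPKM of CYP707A1, CYP707A2 and CYP707A3 was 32.2 ± 1.99 (SD, n = 3), with 61.0 ± 0.858% from CYP707A1, 36.9 ± 1.06% from CYP707A3 and 2.18 ± 0.623% from CYP707A2. In cop1-4 the sum was 29.9 ± 1.14, a range of libraries that overlapped Col-0, and CYP707A2 made up 33.4 ± 2.61% of it. In spaQ the sum was 48.2 ± 2.92, above every library of the other 6 groups, and CYP707A2 made up 73.6 ± 2.66%. The higher sum in spaQ thus came with 9.10 ± 0.568 RPKM of CYP707A1 and 3.55 ± 0.0835 RPKM of CYP707A3 beside 35.5 ± 3.42 RPKM of CYP707A2. In the phyB-GFP groups CYP707A2 was 0.280 to 1.001% of the sum, and CYP707A1 and CYP707A3 kept shares of 63.4 to 70.1% and 29.6 to 36.1%.

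**Figure D2:**
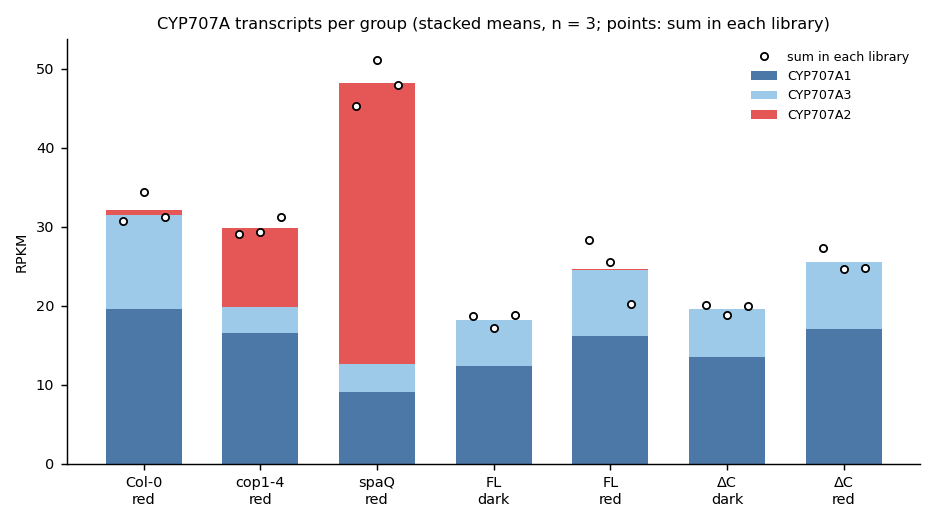
Mean RPKM of CYP707A1, CYP707A3 and CYP707A2 stacked by group (vertical axis from 0, n = 3 libraries a group), with open points for the sum in each library. CYP707A4 is left out. The sum in Col-0 and cop1-4 was alike, 32.2 and 29.9 RPKM, with a different makeup, and in spaQ, at 48.2 RPKM, most of it was CYP707A2.

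The mutants also differed from Col-0 in shoot and root markers. The summed level of 4 shoot genes for photosynthesis was 9614 to 10386 CPM in Col-0, 38478 to 43773 CPM in cop1-4 and 33206 to 35552 CPM in spaQ, and that of 4 root genes was 8364 to 8874 CPM, 4299 to 4529 CPM and 4445 to 4527 CPM. All 8 genes were above 3 counts in all these libraries. Of the 4 shoot genes 4 were called higher in cop1-4 and 3 in spaQ. The root sum was mostly PYK10, which differed by −0.95 in spaQ and −0.99 in cop1-4, while the other 3 root genes were higher in both mutants, with COBL9 at 1.296 and 1.28. Between cop1-4 and spaQ, the shoot sums were lower in spaQ without overlap and the root sums overlapped. The part of organ proportions in the levels of CYP707A2 and the other members was not tested.

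Red light for 1 h was compared with darkness in the phyB-GFP lines to ask whether these genes respond and whether the response needs the C-terminal end of phyB. In phyB-GFP FL 7 members were tested and 0 were called at an adjusted p under 0.05 and a 1.5-fold change, where 5% of all genes tested were called. In phyB-GFP ΔC 0 of 7 were called against 2.88%. DESeq2 also called 0 in each line, and 2 members had an unadjusted p under 0.05 in each line under edgeR, CYP707A1 and CYP707A3. Both enzymes were higher in red light in FL below the fold limit. CYP707A1 had 27.4, 24.6 and 26.2 CPM in dark FL and 39.6, 34.3 and 28.8 CPM in red FL, with no overlap, and differed by 0.37 on the log2 scale (standard error 0.0996, adjusted p = 0.0322). CYP707A3 had 11.7, 11.0 and 13.0 CPM in the dark and 19.3, 18.9 and 13.0 CPM in red light, a difference of 0.50 (standard error 0.134, adjusted p = 0.0312), where 8.92% of all genes passed this p. The lowest red value of each belongs to the library that stood apart. Without it the CYP707A3 difference was 0.66 (adjusted p = 0.000356), a call, and that of CYP707A1 was 0.48 (adjusted p = 0.0014), below the fold limit.

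In phyB-GFP ΔC the same 2 genes had values of like size that did not pass. CYP707A1 had 29.3, 27.0 and 29.6 CPM in the dark and 38.2, 35.1 and 35.0 CPM in red light, a log2 fold change of 0.32 (95% interval 0.11 to 0.53, adjusted p = 0.0836, edgeR). CYP707A3 had 12.5, 12.3 and 12.05 CPM in the dark and 18.7, 16.4 and 16.5 CPM in red light, 0.47 (0.19 to 0.75, adjusted p = 0.0537). Neither gene's red and dark libraries overlapped in ΔC. The line by light interaction, which tests whether the responses differ, was −0.05 for CYP707A1 (95% interval −0.34 to 0.25) and −0.03 for CYP707A3 (−0.43 to 0.37), each at an adjusted p of 0.999. Of the 7 members tested 0 passed the interaction in edgeR, where 0.103% of all genes passed, and 0 had an unadjusted p under 0.05. In DESeq2 0 members passed as well.

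For the other 5 tested members the intervals of the red light difference included 0 in both lines. SOM differed by −0.14 in FL (95% interval −0.48 to 0.21), and by 0.08 without the library that stood apart, and by −0.01 in ΔC (−0.34 to 0.33). DAG1 differed by −0.17 in FL (−0.36 to 0.02) and by −0.01 in ΔC (−0.20 to 0.18). ABI5 differed by 0.10 in FL (−0.11 to 0.30) and 0.08 in ΔC (−0.11 to 0.28). For these 3 genes a 1.5-fold change, 0.585 on the log2 scale, lay outside both intervals. For ABI3, at 0.49 in FL (−0.07 to 1.05) and 0.24 in ΔC (−0.28 to 0.76), and NCED9, at 0.09 (−0.71 to 0.90) and 0.08 (−0.63 to 0.80), a change of that size lay inside both intervals. Without the library that stood apart the FL difference was 0.72 for ABI3 (adjusted p = 0.0819, edgeR), 0.17 for NCED9, −0.14 for DAG1 and 0.08 for ABI5.

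Between the lines, phyB-GFP ΔC against FL, 0 of 7 members were called in the dark and 0 in red light in edgeR, where 1.19% and 1.67% of all genes were called. DESeq2 also called 0 members in each. The single unadjusted p under 0.05 was that of ABI3 in the dark, at 0.57 (95% interval 0.02 to 1.11, adjusted p = 0.336). SOM was higher in every dark ΔC library than in every dark FL library, yet its differences of 0.21 in the dark (−0.13 to 0.55) and 0.34 in red light (−0.01 to 0.68) did not pass (adjusted p = 0.605 and 0.313). Without the library that stood apart the red light difference of SOM was 0.12 (adjusted p = 0.583, edgeR) and that of ABI3 was 0.09 in place of 0.32 (adjusted p = 0.889), and 0 members were called.

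**Figure D3:**
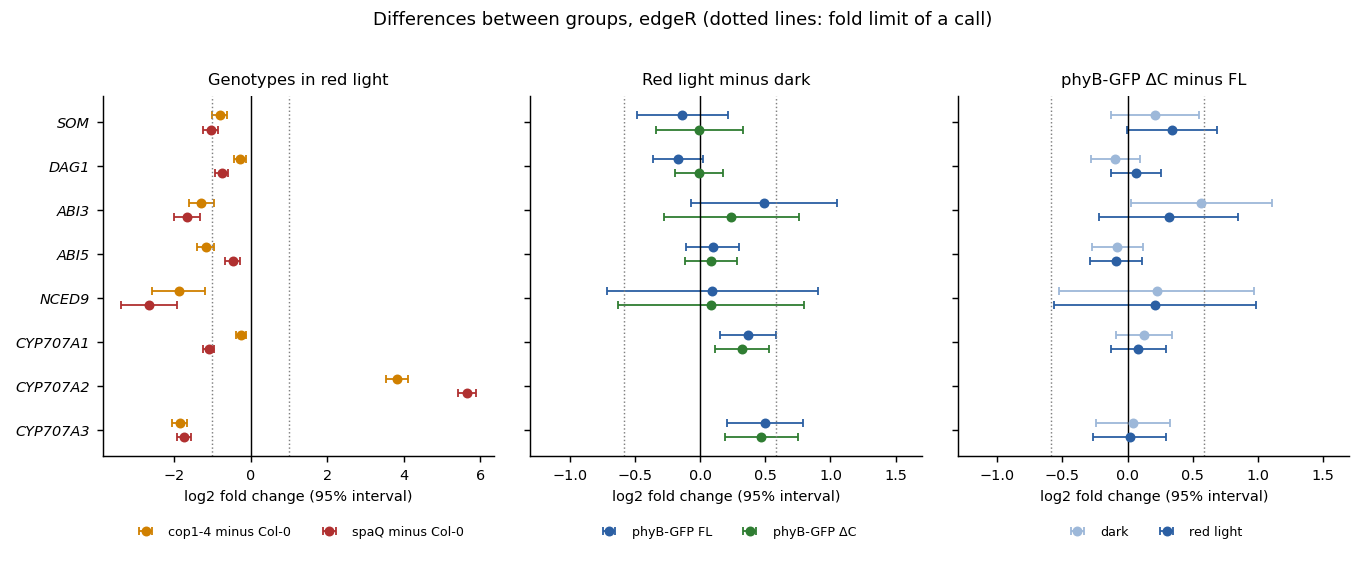
Log2 fold changes (horizontal axes) of the members with 95% intervals: cop1-4 and spaQ against Col-0 in red light, red light against dark in the phyB-GFP lines, and ΔC against FL. NCED6 is left out as too low, and CYP707A2 has no value in the 2 right panels. The left panel runs to 5.65 for CYP707A2 in spaQ, whereas no member reached the 1.5-fold limit (dotted) with its whole interval in the other panels.

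On one scale, ABI3 and NCED9 had the same order of the 7 groups by mean, and the other genes that could be measured each had an order of their own. Col-0 was the highest group for DAG1, ABI3, NCED9, CYP707A1 and CYP707A3, and of these only in CYP707A1 and CYP707A3 did its range lie clear of the next group, red ΔC. The lowest group was spaQ for SOM, DAG1, ABI3, NCED9 and CYP707A1 and cop1-4 for ABI5 and CYP707A3, and spaQ overlapped cop1-4 for SOM, ABI3 and CYP707A3. Against Col-0 in red light, phyB-GFP FL was lower with an adjusted p under 0.05 and under the fold limit in 4 further genes, DAG1 (−0.29), ABI3 (−0.63), CYP707A1 (−0.28) and CYP707A3 (−0.51), and phyB-GFP ΔC in DAG1 (−0.23) and CYP707A3 (−0.50). Without red FL replicate 3, ABI3 (−0.43, adjusted p = 0.193, edgeR) and CYP707A1 (−0.19, adjusted p = 0.0902) no longer passed, DAG1 (−0.28, adjusted p = 0.0225) and CYP707A3 (−0.36, adjusted p = 0.00358) did, and CYP707A2 was −2.12 (adjusted p = 8e-05). Of all genes tested, 29.5% passed this p for FL and 31.6% for ΔC. CYP707A2 was called in both lines, 1 of 8 members tested, where 2.93% of all genes were called for FL and 4.54% for ΔC.

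The genes whose log2 CPM followed a member most closely over the 21 libraries were named by Pearson's r, a description, as libraries share groups, depth and RNA composition. For CYP707A2 they were AT1G62250 (r = 0.996) and CHUP1 (0.995), a protein that positions chloroplasts. For CYP707A3 they were AT3G52800 (0.981) and NDB2 (0.979), a mitochondrial NAD(P)H dehydrogenase, and for CYP707A1 the kinase gene CIPK7 (0.954) and GGH2 (0.935). ABI5 was followed by TSPO (0.962) and MFT (0.960), the latter a regulator of seed germination, SOM by AT4G24480 (0.970) and AT1G35220 (0.966), ABI3 by NAC100 (0.929) and PHO2 (0.917) and DAG1 by ENODL9 (0.936) and SPT1 (0.923). Among the members themselves, r with CYP707A2 was −0.928 for SOM, −0.815 for NCED9, −0.714 for CYP707A3 and −0.446 for CYP707A1.

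Beside the 9 members, 57 genes of the same pathways were listed by function: other genes of ABA synthesis and breakdown, receptors, PP2C phosphatases, SnRK2 kinases, transcription factors, ABI5-binding proteins, dormancy genes, ABA-responsive genes and the genes around PIF1 and SOM in germination. Of these, 51 were tested in the genotype comparison. In spaQ 16 were called higher and 13 lower than in Col-0, and in cop1-4 9 higher and 18 lower, where 32.5% and 23.8% of all genes tested were called in either direction. The median log2 fold change of the 51 was 0.01 in spaQ and −0.24 in cop1-4. Between the mutants 10 were called higher and 1 lower in spaQ, against 2.88% and 5.63% of all genes. Values are given for the 2 to 4 genes of each list with the smallest adjusted p.

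In ABA synthesis, NCED3, the dioxygenase that drives ABA production under water stress, had 15.4, 16.6 and 11.4 CPM in Col-0, 1.10, 1.37 and 1.21 CPM in cop1-4 and 0.243, 0.315 and 0.0527 CPM in spaQ. The groups did not overlap, with log2 fold changes of −3.54 in cop1-4 (adjusted p = 5.93e-15, edgeR) and −6.09 in spaQ (adjusted p = 1.76e-17), where the spaQ libraries held 5, 6 and 1 counts. ABA1, the zeaxanthin epoxidase of the xanthophyll cycle, was higher by 1.94 in spaQ and 1.53 in cop1-4, and AAO3, the oxidase of the last step, by 0.64 and 0.45, below the fold limit. Of the 8 listed synthesis genes, 1 was called higher and 1 lower in each mutant. CYP707A4, the remaining 8′-hydroxylase gene, had 0, 1 and 2 counts in Col-0, 9, 10 and 6 in cop1-4 and 66, 52 and 39 in spaQ. Its ratio of spaQ to Col-0 was 59.8 with a 95% counting interval of 20.1 to 293, and it was called higher in spaQ (adjusted p = 1.07e-11), so that CYP707A2 and CYP707A4 were the breakdown genes called higher and CYP707A1 and CYP707A3 those called lower.

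Of the 9 receptor genes listed, 5 were called higher and 1 lower in spaQ and 6 higher and 1 lower in cop1-4. PYL6 differed by 3.36 in spaQ and 3.20 in cop1-4, PYL5 by 1.997 and 1.41, and PYL8 by 1.12 and 1.11, the last under the fold limit with library size alone (0.87 and 0.91). Their targets, the clade A PP2C phosphatases, had 3 of 6 called lower and 1 higher in spaQ, and 4 of 6 lower in cop1-4. HAB2 differed by −1.50 in spaQ and −1.10 in cop1-4, AHG3 by −1.94 and −1.48 and ABI2 by −1.64 and −1.23. Of the 3 SnRK2 kinases listed, 0 were called in either mutant, although SNRK2.3 differed by −0.59 in spaQ at an adjusted p of 6.26e-08.

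Among the transcription factors the ABFs, which are close relatives of ABI5, were split. ABF3 differed by −1.98 in spaQ and −1.72 in cop1-4 and ABF2 by −1.57 and −1.56, whereas ABF1 was higher by 1.62 and 1.95. The 3 ABI5-binding proteins, which promote the loss of ABI5, were all called lower in both mutants: AFP1 at −2.17 in spaQ and −2.02 in cop1-4, AFP2 at −1.65 and −1.93 and AFP3 at −2.57 and −2.81. DOG1, the main quantitative regulator of seed dormancy, had 9, 4 and 4 counts in Col-0, 133, 153 and 146 in cop1-4 and 213, 176 and 186 in spaQ, log2 fold changes of 5.11 (adjusted p = 3.82e-17, edgeR) and 5.24 (adjusted p = 6.75e-18). MFT differed by −4.25 in cop1-4 and −1.47 in spaQ.

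The ABA-responsive genes separated the mutants. RD29A was lower in both, at −2.22 in spaQ and −2.86 in cop1-4. RAB18, a dehydrin, had 26.8, 43.6 and 26.9 CPM in Col-0, 6.10, 17.6 and 6.26 CPM in cop1-4 and 92.0, 102 and 130 CPM in spaQ, with no overlap between the groups. It differed by −1.66 in cop1-4 (adjusted p = 7.21e-07) and 1.74 in spaQ (adjusted p = 1.05e-09), and by 3.40 between the mutants (adjusted p = 1.28e-12). EM6, a late embryogenesis abundant gene, was higher by 2.02 in spaQ (adjusted p = 3.71e-09; 0.0541 in DESeq2) and by 4.38 in spaQ against cop1-4. Of the 6 genes of this list, 3 were called higher and 1 lower in spaQ, 5 lower in cop1-4 and 4 higher in spaQ than in cop1-4. The seed marker sums given above had the order of RAB18, and their part was not tested.

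In the germination list, GA3OX1, which makes active gibberellin and is held down by SOM in seeds, differed by −4.20 in spaQ and −3.88 in cop1-4. The RNA of PIF1, the factor upstream of SOM, differed by −0.50 in spaQ (adjusted p = 1.96e-08, edgeR), below the fold limit. PIF1 protein was not measured here, and the paper reports that red light hardly degraded it in spaQ. JMJ22, a histone demethylase gene repressed by SOM in seeds, was higher by 1.29 in spaQ and, below the fold limit, by 0.85 in cop1-4. The part of SOM in the levels of GA3OX1 and JMJ22 was not tested.

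**Figure D4:**
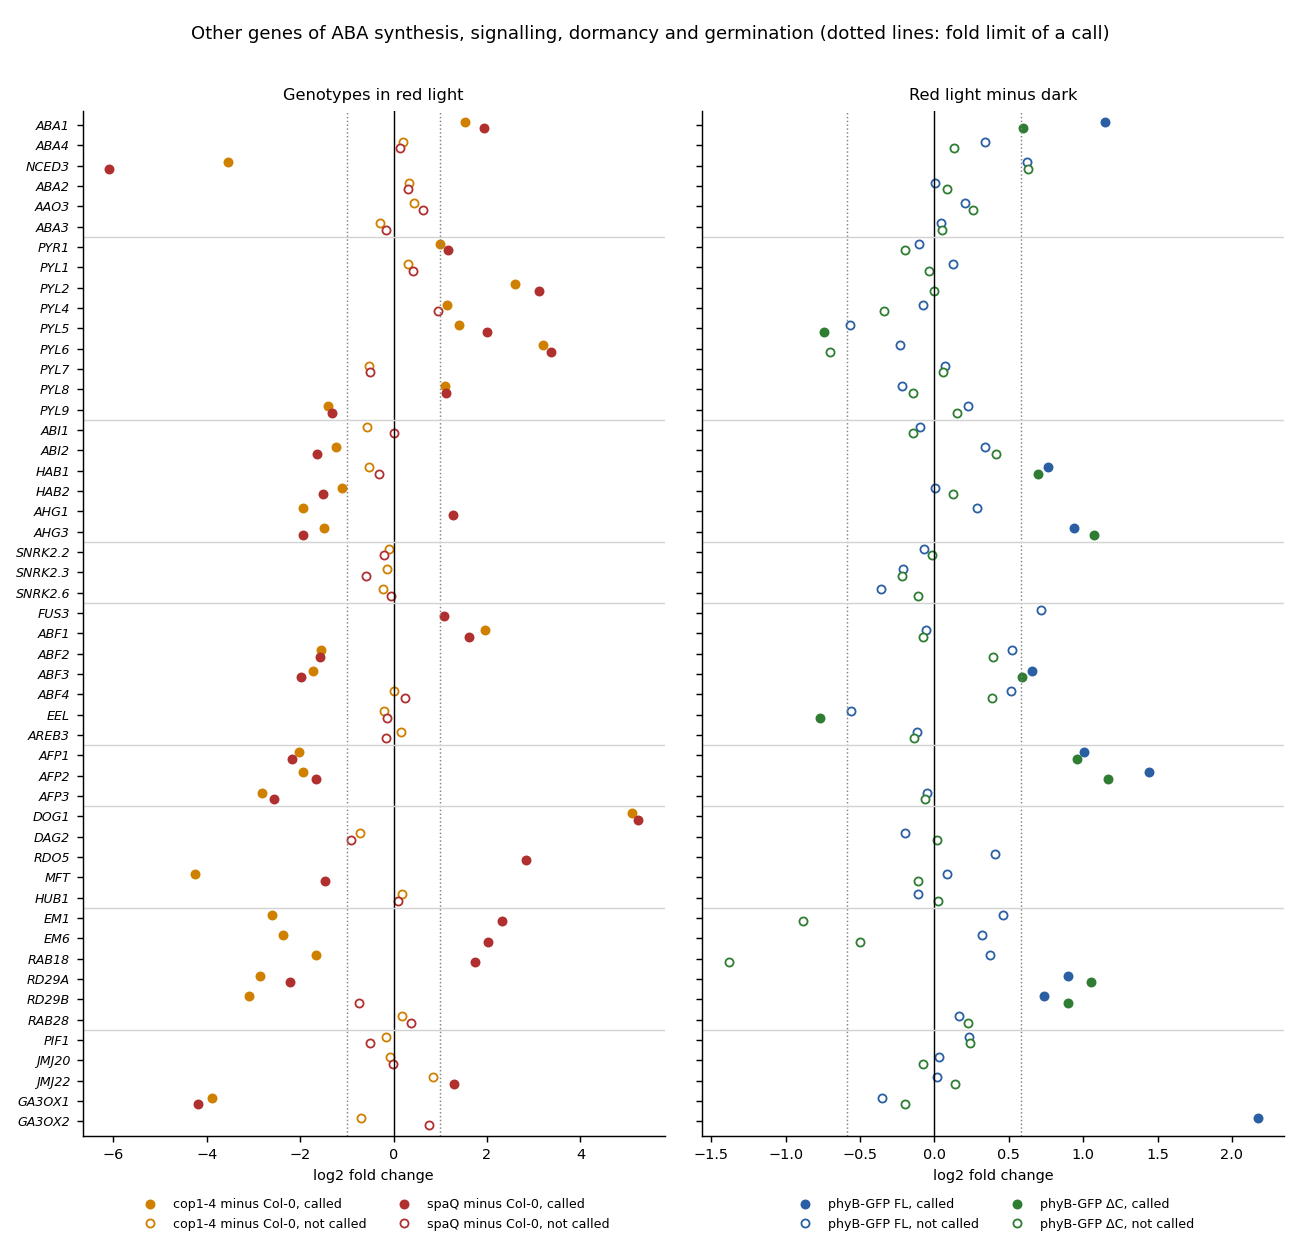
Log2 fold changes (horizontal axes) of 50 of the 51 listed pathway genes tested in the genotype comparison (without CYP707A4), in 9 functional lists separated by grey lines, for cop1-4 and spaQ against Col-0 in red light (left) and red light against dark in the phyB-GFP lines (right). Filled points are calls and open points are not, dotted lines mark the fold limit, and genes too low in a comparison have no point. NCED3 lies at −6.09 in spaQ and the AFP genes lie left of −1 in both mutants, while on the right AFP1 and AFP2 lie right of the limit in both lines.

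In the phyB-GFP lines 1 h of red light called 9 of the 50 listed genes tested higher and 0 lower in FL, and 8 higher and 2 lower in ΔC, where 3.28% and 1.72% of all genes were called higher and lower in FL and 1.59% and 1.3% in ΔC. Genes called higher in both lines were ABA1 (1.149 in FL and 0.60 in ΔC), AFP2 (1.44 and 1.17), AFP1 (1.01 and 0.96), AHG3 (0.94 and 1.07), HAB1 (0.76 and 0.69), ABF3 (0.66 and 0.59), RD29A (0.90 and 1.05) and RD29B (0.74 and 0.90). The calls of ABA1 and ABF3 in ΔC lay close to the fold limit: ABA1 was 0.55 without dark ΔC replicate 3 and 0.56 without red ΔC replicate 3, and ABF3 was 0.55 without dark ΔC replicate 1 and 0.55 without red ΔC replicate 3. RD29B in FL no longer passed without dark FL replicate 2 (0.64, adjusted p = 0.0671) or red FL replicate 1 (0.57, adjusted p = 0.0756). The genes called lower in ΔC were PYL5 (−0.74), a receptor, and EEL (−0.77), a bZIP factor related to ABI5, and in FL they differed by −0.57 and −0.56, below the fold limit. GA3OX2 was called higher in FL alone (2.17, adjusted p = 0.00296), with 3, 12 and 2 counts in the dark and 18, 27 and 25 in red light, and in ΔC, with 4, 6 and 5 counts and 4, 9 and 8, it was too low to judge. For the interaction of line and light, 0 of the 50 listed genes passed in edgeR, 2 at an unadjusted p under 0.05.

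In red light 3 listed genes were called lower in ΔC than in FL, where 1.08% of all genes were: EM1 (−2.89, adjusted p = 0.00637), RAB18 (−2.82, adjusted p = 0.00317) and GA3OX2 (−2.003, adjusted p = 0.0149). GA3OX2 no longer passed without red ΔC replicate 2 (adjusted p = 0.0667) or replicate 3 (adjusted p = 0.0716). EM1 had 8.83, 13.1 and 13.9 CPM in red FL and 1.37, 2.596 and 0.787 CPM in red ΔC. Of the 9 seed maturation genes 6 were also called lower there, and their part in the values of EM1 and RAB18 was not tested. ABI3 and ABI5, the factors known to act on EM1 and RAB18 in seeds, did not pass in the same comparison, at 0.32 (−0.22 to 0.85) and −0.09 (−0.29 to 0.11). The interval of ABI3 included a 1.5-fold change, and the part of ABI3 and ABI5 in the values of EM1 and RAB18 was not tested.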

How the data were processed

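The authors used FastQC, TopHat with Bowtie2 against the TAIR10 genome, and HTSeq, and deposited the resulting counts of reads for each gene without normalization. The strand mode is not given in the sources used here. The counts cover 33655 features, 32548 of them loci that all matched the RefSeq annotation of TAIR10.1, used here for coordinates, exon lengths and promoter windows.

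Counts were tested with edgeR 4.0.16 in R 4.3.3: TMM factors, filterByExpr by group, its quasi-likelihood test, and p-values adjusted by Benjamini-Hochberg across every gene tested. The first fit held the 9 libraries of spaQ, cop1-4 and Col-0 and 20396 genes, the second the 12 phyB-GFP libraries and 20459 genes, and phyB-GFP lines were compared with Col-0 in a fit of all 21 libraries and 20949 genes. A call needed an adjusted p under 0.05 and a log2 fold change whose size passed 1, or 0.585 (1.5-fold) in the phyB-GFP fit, and the larger limits written in the study's methods were an alternative. A gene is too low to judge where it fails the filter or neither group has a median of 10 counts. RPKM divide CPM by the summed length of merged exons. Likeness was Pearson's r of log2(CPM + 0.5) among genes passing the filter, for members with a mean of at least 1 CPM.

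The members, pathway lists and markers were chosen with earlier results of these data known. Named genes are the members, the 2 to 4 genes per list with the smallest adjusted p, the mutated or reintroduced genes, and the 2 most alike genes per member. Where members or list genes beyond this rule are named, they were chosen after their values were seen. Alternatives were DESeq2 1.42.0, DESeq2's size factors with edgeR, scaling by library size alone, other count filters, a replicate block, other sets of libraries in the fit, other fold limits and leaving out each library. The scripts were tested on simulated data.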

Additional observations from a re-analysis of the deposited data

How the results depend on the processing

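The 74 results for single members were recomputed to 1177 values, of which 1097 kept their direction and their side of the threshold, 12 lost the call, 20 gained one and 48 changed sign. All sign changes were in differences that had not passed the test. Called members fell to 2 (spaQ) and 1 (cop1-4) against Col-0 and to 0 between the mutants with the larger fold limits in the methods. With no fold limit they were 8 for cop1-4 against Col-0, 4 between the mutants, 2 for red light in phyB-GFP FL, 5 for FL and 3 for ΔC against Col-0. Against Col-0, FL and ΔC had 0 with at least 10 counts in every library, a filter that removes CYP707A2, their only called member, without testing it. FL against Col-0 also had 0 with the methods' limits. Leaving out 1 library gave 1 to 2 for FL against Col-0, where NCED9 (−1.05, adjusted p = 0.0156, edgeR) joined without red FL replicate 1, and 0 to 1 for red light in FL, where CYP707A3 joined without red FL replicate 3.

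Leaving out 1 library, the interaction ran from −0.48 to 0.076 for ABI3, −0.078 to 0.055 for ABI5, −0.16 to 0.081 for CYP707A1, −0.19 to 0.078 for CYP707A3, −0.34 to 0.52 for NCED9 and −0.091 to 0.29 for SOM. FL against Col-0 ran from −0.051 to 0.023 for ABI5 and −0.19 to 0.19 for SOM, and red light in FL from −0.43 to 0.42 for NCED9 and −0.30 to 0.083 for SOM. Red light in ΔC ran from −0.070 to 0.036 for DAG1, −0.014 to 0.21 for NCED9 and −0.088 to 0.045 for SOM. ΔC against FL ran from −0.031 to 0.20 for CYP707A1, −0.15 to 0.11 for CYP707A3 and −0.11 to 0.73 for NCED9 in red light, and from −0.017 to 0.12 for CYP707A3 in the dark. ABI5 in FL against Col-0 was −0.0097 in DESeq2, −0.0103 with its size factors and −0.0050 in a fit of those groups only, and SOM was 0.054 with library size alone. In one fit of all 21 libraries the ΔC red light difference was 0.0036 for DAG1 and 0.0025 for SOM. With library size alone SOM in cop1-4 was −1.01, past the limit.

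Deviations of libraries with the same replicate number correlated over 0.1 in 1 of 9 pairs of the genotype fit and 3 of 18 pairs of the phyB-GFP fit, so the numbers were not taken to pair libraries. With the replicate block 6 and 5 members were called in spaQ and cop1-4 against Col-0, as without it, and the interaction of NCED9 was 0.0127. Depth limits NCED6 and, in the phyB-GFP lines, CYP707A2.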
